A study of Mus musculus with 8 samples.

Results

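The genes described here set the pace of the first gap phase (G1) of the cell cycle, and with it the exit of a stem cell from quiescence. They are the CIP/KIP inhibitors Cdkn1a, Cdkn1b and Cdkn1c, the INK4 inhibitors Cdkn2c and Cdkn2d, the D-type cyclins Ccnd1, Ccnd2 and Ccnd3, and their kinase partners Cdk4 and Cdk6. Members were the rows of the authors' annotated expression table whose gene symbol was one of these names. All 10 genes were found, on 11 probe sets, among 21104 genes that carry a single symbol. Cdkn1b had 2 probe sets and every other member had 1. For Cdkn1b the brighter probe set was used, and the other is given beside it.

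A D-type cyclin is made when a cell senses growth signals. It binds CDK4 or CDK6, and the pair phosphorylates RB, which then releases E2F transcription factors that switch on genes of DNA replication. INK4 proteins bind CDK4 and CDK6 and keep the cyclin out. CIP/KIP proteins bind cyclin and kinase together and block mainly CDK2. In mice, haematopoietic stem cells (HSCs) that lack p57, the product of Cdkn1c, are known to lose quiescence, and CDK6 is known to speed the exit of human HSCs from it.

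The HSCs came from bone marrow of C57Bl/6 mice that had received no treatment, and their RNA was measured on 1 Affymetrix array per pool. After enrichment for Kit, the sort gate kept cells that carried Kit, Sca-1, CD150 and much CD9 but no lineage marker and no CD48. The KO group of 4 pools came from Vav-Cre;BMPR-II(fl/fl) mice, in which Cre recombinase, driven in blood cells by the Vav promoter, removes exons 4 and 5 of Bmpr2, which encodes a BMP type II receptor (BMP, bone morphogenetic protein). The WT group of 4 pools came from littermates negative for Cre. Per the labels, each pool held bones of 3 mice, whose ages are not stated in the sources used here. The series' design text speaks instead of 4 mice per group, and the pool was taken as the replicate. All KO mice carried 2 floxed alleles. In WT pools 1 to 4, the mice with both alleles floxed numbered 1, 0, 1 and 2, those with a single floxed allele 2, 3, 1 and 1, and WT pool 3 held 1 mouse with none. Since every KO pool and no WT pool carried Cre, effects of the transgene and of losing Bmpr2 cannot be told apart.

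The DNA just before an annotated start of transcription, the most upstream where several were listed, is shown for 4 members. In each a motif of a known regulator was found, as in every other member window that could be searched. No link between motifs and levels was tested. Whether these cells use that start was not measured. Promoters of 7 of the 10 members matched the RefSeq table of build GRCm38.p6. Cdkn1c, Ccnd1 and Ccnd2 are named only. In 5 of the 7, the 4 shown among them, that start is the outer edge of the gene in RefSeq, while in Cdk6 it lies 2889 bases and in Cdkn2d 212 bases inside the gene, downstream of that edge. For each gene the 250 bases before the start used in that table are given 5′ to 3′ on the gene's strand, with motifs in capitals. Capitals in Cdkn1a, on the plus strand at chr17:29090729-29090978, mark p53 half-sites, and p53 is the best known activator of this gene. Capitals in Cdkn1b, on the plus strand at chr6:134920151-134920400, and in Cdkn2c, on the minus strand at chr4:109666757-109667006, mark GGCGCC, a GC-rich element that SMAD proteins of the BMP pathway can bind. Capitals in Cdk4, on the plus strand at chr10:127063285-127063534, mark CACGTG, the E-box that MYC binds.
Cdkn1a: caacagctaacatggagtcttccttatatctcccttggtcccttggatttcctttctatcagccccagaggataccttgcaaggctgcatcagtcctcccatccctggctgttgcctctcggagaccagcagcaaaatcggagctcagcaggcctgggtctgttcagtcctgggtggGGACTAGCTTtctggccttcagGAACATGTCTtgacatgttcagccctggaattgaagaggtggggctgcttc
Cdkn1b: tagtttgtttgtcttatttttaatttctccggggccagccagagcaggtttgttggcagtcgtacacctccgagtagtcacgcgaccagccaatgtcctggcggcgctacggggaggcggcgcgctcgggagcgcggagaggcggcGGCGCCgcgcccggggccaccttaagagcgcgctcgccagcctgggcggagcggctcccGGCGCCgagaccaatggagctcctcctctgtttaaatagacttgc
Cdkn2c: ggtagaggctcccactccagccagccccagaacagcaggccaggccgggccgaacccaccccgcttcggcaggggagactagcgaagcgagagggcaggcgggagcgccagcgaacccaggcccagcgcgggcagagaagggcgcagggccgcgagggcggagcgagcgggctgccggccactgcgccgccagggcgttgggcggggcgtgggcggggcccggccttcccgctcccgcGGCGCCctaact
Cdk4: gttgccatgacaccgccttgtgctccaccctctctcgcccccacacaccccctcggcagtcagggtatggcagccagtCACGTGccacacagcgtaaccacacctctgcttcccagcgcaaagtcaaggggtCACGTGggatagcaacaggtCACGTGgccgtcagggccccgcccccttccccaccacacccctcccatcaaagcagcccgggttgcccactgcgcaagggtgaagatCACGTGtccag
The Cdk4 window held 4 E-boxes, the farthest from 172 to 167 bases and the nearest from 11 to 6 bases before the start. An E-box stood in 6.04% of 27025 windows of the same length, 1 per gene, and Cdk6 held 1 as well. GGCGCC occurred once in Cdkn2c, from 12 to 7 bases before the start, once in Cdk6, and at 2 places in Cdkn1b. It stood in 9.57% of all windows. GGCGCC holds only G and C, which made up 77.2% of the Cdkn2c window, 66.0% of that of Cdk6 and 64.4% of that of Cdkn1b. The share over all windows was not matched for this. Cdkn1a held 2 p53 half-sites, from 73 to 64 and from 51 to 42 bases before the start, and Cdkn2d held 1, against 7.16% of all windows with at least 1. Both strands were searched, and the motifs did not overlap in the windows printed. None of the 7 windows held TTTCCCGC, TTTGGCGC, TTTCGCGC or TTTGCCGC, spellings of the E2F site found in 1.92% of all windows. The element GTAAACA of FOXO factors stood in 3.06% of all windows and, among the members, in Ccnd3. These are matches of letters in one window and do not show that a factor binds there.

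Levels are log2 values after robust multi-array averaging (RMA), and the 8 arrays had medians between 5.77 and 5.83 over all genes. WT pool 2 stood farthest from the rest, its median correlation with the remaining arrays, across genes, being 0.982, while those of the 7 others lay between 0.985 and 0.987. Bmpr2 itself ranged from 6.64 to 7.22 in KO and from 7.05 to 8.09 in WT, so that the groups overlapped by KO pool 1 and WT pool 3. Its difference was -0.79 (SE 0.21, limma adjusted p = 0.967, exact permutation p = 0.0571), and its probe set may cover exons outside the deleted part. Transcripts of the gate were present, with Kit at 10.20 in KO and 10.35 in WT, Ly6a, which encodes Sca-1, at 8.78 and 8.87, and Cd48, which the gate selects against, at 5.17 and 4.99. Averaged per pool, the 8 markers of T and NK cells ranged from 4.77 to 5.07 in KO and from 4.82 to 5.16 in WT. The granulocyte and monocyte markers averaged 6.21 to 7.27 and 5.81 to 7.14, and the erythroid ones 6.12 to 6.70 and 5.89 to 6.44. Single genes lay above or below their averages. Far above were Nkg7, a T and NK marker, at 8.48 in KO and 8.06 in WT, S100a8 at 9.996 and 9.31, and Hbb-b1 at 9.59 and 9.49. These arrays report the RNA of a whole pool, so fewer cells of a type and less RNA per cell cannot be told apart.

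No member passed the test between groups. The 3 CIP/KIP inhibitors were lower in KO, and the 2 INK4 inhibitors, the 3 D cyclins and the 2 kinases were higher. For Cdkn1b this holds for the brighter probe set only, the dimmer one being higher in KO by 0.08. The signs of Cdkn1a, Cdkn2d and Cdk6 changed when certain single pools were left out. That makes 7 of 10 members higher, where 48.7% of all 21104 genes were, with a median difference (KO minus WT, log2) of 0.09 against -0.0043 over all genes. limma with Benjamini-Hochberg adjustment over all genes called 0 members and 0% of all genes with its threshold of 0.05. Before adjustment, and with the pools unpaired, 1 member, Ccnd1, and 4.55% of all genes had a p under 0.05. With the pool number as a block, 4 members and 1689 of 21104 genes had an unadjusted limma p under 0.05. After adjustment, 0 members were called under that block. The labels do not say that the numbers pair the pools. Taken without regard to their numbers, the pools of the groups overlapped for all 10 members, and did not for 2.58% of all genes. Shares over so few genes, which were chosen with earlier results of these data known, do not set the members apart from the rest. The count of members higher in KO ranged from 5, without KO pool 3, to 8, without WT pool 4. Their median difference moved to 0.013 when KO pool 3 was left out, and to 0.046, 0.14 and 0.050 when WT pools 2, 3 and 4 were left out in turn.

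**Figure D1:**
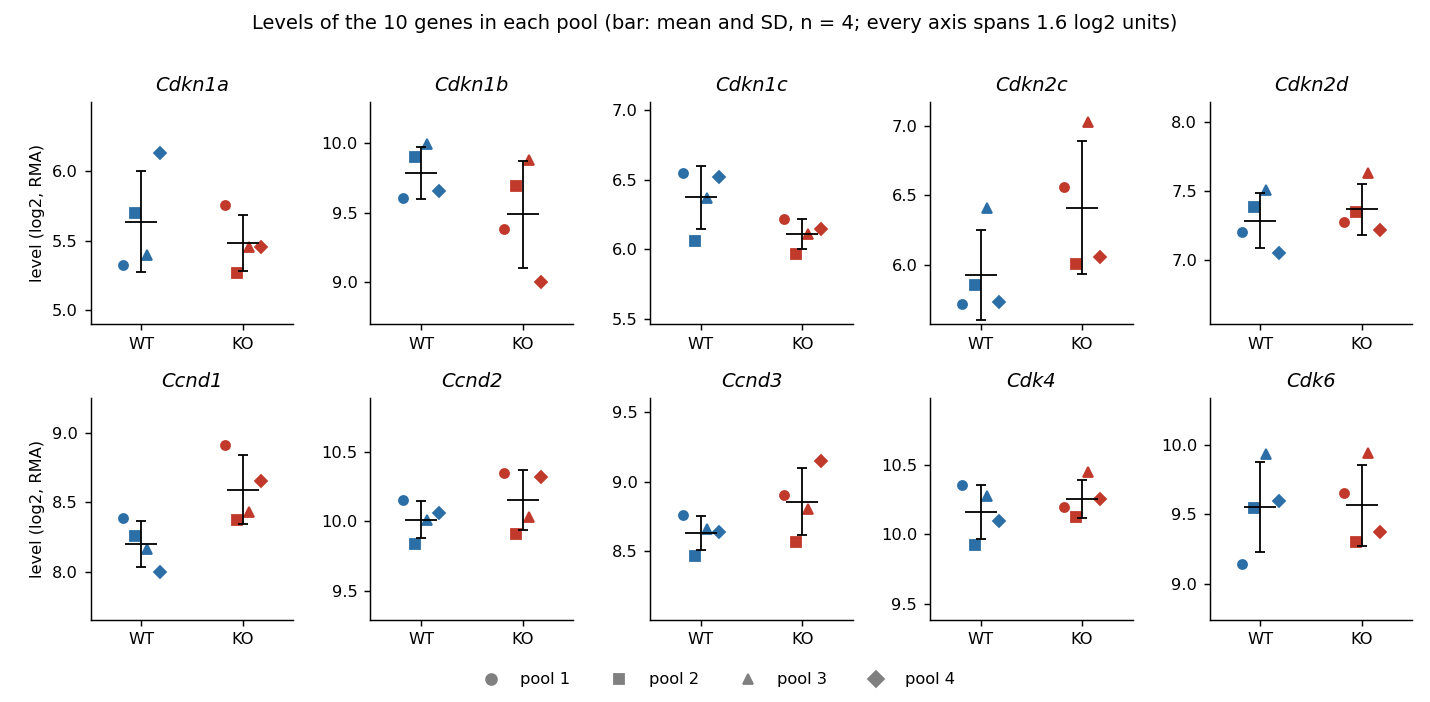
Level of each gene (y axis, log2 after RMA, each axis spanning the same range) in the 4 WT pools (blue) and 4 KO pools (red), with the group mean and SD as bars and the pool number as the marker shape. The groups overlap in every panel, and Ccnd1, with KO pools from 8.37 to 8.91 and WT pools from 7.997 to 8.39, overlaps least.

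**Figure D2:**
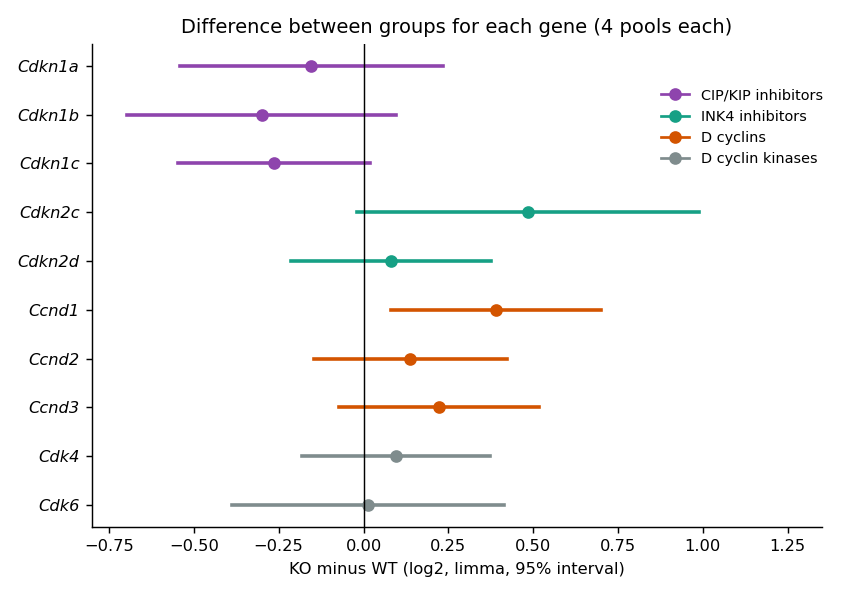
Difference of the group means (x axis, KO minus WT, log2) with its 95% interval from limma for each gene, coloured by role. Only the interval of Ccnd1, from 0.08 to 0.70, lies wholly on one side of 0, before adjustment for the number of genes tested.

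Among the CIP/KIP inhibitors, Cdkn1c, which encodes p57, had the smallest unadjusted p. Its level was 6.22, 5.97, 6.11 and 6.15 in KO pools 1 to 4, against 6.55, 6.06, 6.36 and 6.52 in WT pools 1 to 4. WT pools 1, 3 and 4 lay above every KO pool, and WT pool 2 lay among them. Group means (± SD, n = 4) were 6.11 ± 0.11 for KO and 6.37 ± 0.23 for WT, which gives a difference of -0.26 (SE 0.13, 95% interval -0.55 to 0.02, limma adjusted p = 0.967). The exact 2-sided permutation test of the means over all 70 assignments of pools gave p = 0.114, where the smallest p it can give is 0.0286. Without WT pool 2 the difference was -0.37.

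Cdkn1b encodes p27, which accumulates in resting cells and is destroyed as they enter the cycle. Its level was 9.38, 9.70, 9.88 and 9.002 in KO pools 1 to 4, against 9.61, 9.90, 9.99 and 9.66 in WT pools 1 to 4. KO pools 1 and 4 lay below every WT pool, while KO pools 2 and 3 lay within the WT range. The difference of -0.30 (SE 0.18, 95% interval -0.70 to 0.10) had a limma adjusted p of 0.967 and an exact permutation p of 0.229, and it was -0.14 without KO pool 4 and -0.11 with both probe sets averaged. The dimmer probe set of Cdkn1b gave another picture, with 8.31, 7.32, 8.05 and 8.29 in KO pools 1 to 4, against 7.86, 7.95, 7.94 and 7.90 in WT pools 1 to 4. There KO pool 2 was lowest and KO pools 1 and 4 were highest. Its SD was 0.46 in KO and 0.040 in WT (n = 4), and its difference was 0.08 (SE 0.20, limma adjusted p = 0.984 over 28853 probe sets, exact permutation p = 0.886). Across the 8 pools the probe sets had a Pearson r of -0.46 (exact permutation p = 0.241) and a Spearman rho of -0.31 (exact permutation p = 0.462), and r was -0.28 without KO pool 4 and WT pool 3. Which part of the gene each probe set reads is not stated in the sources used here, so the direction for Cdkn1b depends on the probe set.

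Cdkn1a, which encodes p21, a mediator of the p53 response, was at 5.75, 5.27, 5.46 and 5.46 in KO pools 1 to 4, against 5.33, 5.70, 5.397 and 6.13 in WT pools 1 to 4. The highest and the third highest level were those of WT pools 4 and 2, the lowest that of KO pool 2, and KO pools 1, 3 and 4 lay within the WT range. The difference of -0.15 (SE 0.18, 95% interval -0.54 to 0.23) had a limma adjusted p of 0.975 and an exact permutation p of 0.600. Without WT pool 4 it was 0.01, so that pool alone gave it its sign. These levels lie close to the array medians, and RMA compresses differences of dim probe sets.

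Of the INK4 inhibitors, Cdkn2c, which encodes p18, whose loss is known to favour self-renewal of mouse HSCs, had the largest difference of all members. Its level was 6.56, 6.00, 7.03 and 6.06 in KO pools 1 to 4, against 5.72, 5.85, 6.41 and 5.73 in WT pools 1 to 4. Every KO pool lay above WT pools 1, 2 and 4, and WT pool 3 lay above KO pools 2 and 4. Group means (± SD, n = 4) were 6.41 ± 0.48 for KO and 5.93 ± 0.33 for WT, a difference of 0.49 or 1.40-fold (SE 0.23, 95% interval -0.02 to 0.99). limma's adjusted p was 0.967 and the exact permutation p 0.171. The difference was 0.28 without KO pool 3. In WT pools 1, 2 and 4 the levels lie close to the array medians, so the limit given for Cdkn1a holds here too. Cdkn2c also had the widest spread among pools of a group, with a pooled SD of 0.41 that exceeded that of 95.5% of genes.

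Cdkn2d encodes the other INK4 protein measured here, and it ranged from 7.22 to 7.63 in KO and from 7.05 to 7.51 in WT. The pools interleaved, with KO pool 3 highest and WT pool 4 lowest. Its difference was 0.08 (SE 0.13, 95% interval -0.21 to 0.38, limma adjusted p = 0.980, exact permutation p = 0.543), and it changed sign, to -0.0053, when KO pool 3 was left out, and dropped to 0.0038 when WT pool 4 was. The other genes of the INK4 family, which are not members, were Cdkn2a, at 5.27 in both groups, and Cdkn2b, at 5.61 in KO and 5.42 in WT.

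Among the D cyclins, Ccnd1 stood farthest apart between the groups. It encodes cyclin D1, and its level was 8.91, 8.37, 8.43 and 8.66 in KO pools 1 to 4, against 8.39, 8.26, 8.17 and 7.997 in WT pools 1 to 4. KO pools 1, 3 and 4 lay above every WT pool, and KO pool 2 lay just below WT pool 1. Group means (± SD, n = 4) were 8.59 ± 0.25 for KO and 8.20 ± 0.16 for WT, a difference of 0.39 or 1.31-fold (SE 0.14). The unadjusted p of limma was 0.0182 and its adjusted p 0.967, and the exact permutation p was 0.0571. With a pool left out, the difference lay between 0.28, without KO pool 1, and 0.46, without KO pool 2.

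Ccnd2 encodes cyclin D2, which follicle cells of the mouse ovary need to divide. It was at 10.35, 9.91, 10.03 and 10.32 in KO pools 1 to 4, against 10.15, 9.83, 10.01 and 10.06 in WT pools 1 to 4. KO pools 1 and 4 were highest, and the other 2 KO pools lay within the WT range. Ccnd3, which encodes cyclin D3, needed for the expansion of thymocytes in mice, was at 8.91, 8.56, 8.80 and 9.15 in KO and at 8.76, 8.46, 8.66 and 8.64 in WT. Here KO pools 1, 3 and 4 lay above every WT pool and KO pool 2 below WT pools 1, 3 and 4. The Ccnd2 difference was 0.14 (SE 0.13, 95% interval -0.15 to 0.42, limma adjusted p = 0.967, exact permutation p = 0.286). It was 0.07 without KO pool 1, 0.08 without KO pool 4 and 0.08 without WT pool 2, and 0.22 without KO pool 2. The Ccnd3 difference was 0.22 (SE 0.13, 95% interval -0.07 to 0.52, limma adjusted p = 0.967, exact permutation p = 0.171), and it was 0.13 without KO pool 4.

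The differences of both kinases were close to 0. Cdk4, which MYC is known to induce, lay at 10.20, 10.13, 10.45 and 10.26 in KO pools 1 to 4, against 10.36, 9.92, 10.27 and 10.09 in WT pools 1 to 4, with KO pool 3 highest, WT pool 2 lowest and the rest interleaved. Its difference was 0.10 (SE 0.13, 95% interval -0.18 to 0.37, limma adjusted p = 0.980, exact permutation p = 0.429), and it was 0.01 without WT pool 2, 0.03 without KO pool 3 and 0.16 without WT pool 1. Cdk6, the other partner of the D cyclins, was at 9.65, 9.30, 9.94 and 9.37 in KO and at 9.14, 9.55, 9.93 and 9.59 in WT. The third pool of each group was high and WT pool 1 was low. The difference of 0.01 (SE 0.18, 95% interval -0.39 to 0.41, limma adjusted p = 0.999, exact permutation p = 0.971) had no stable sign, and it was -0.06 after a further quantile normalization.

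Within the groups, the pools differed by as much as the groups did, and some pools held the highest or lowest level of several members. KO pool 3 had the highest level of 4 members, Cdkn2c, Cdkn2d, Cdk4 and Cdk6. KO pool 4 had the highest Ccnd3 and, by the brighter probe set, the lowest Cdkn1b, and KO pool 1 the highest Ccnd1 and Ccnd2. WT pool 2 had the lowest level of 3 members, Ccnd2, Ccnd3 and Cdk4. WT pool 4 had the highest Cdkn1a together with the lowest Ccnd1 and Cdkn2d.

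**Figure D3:**
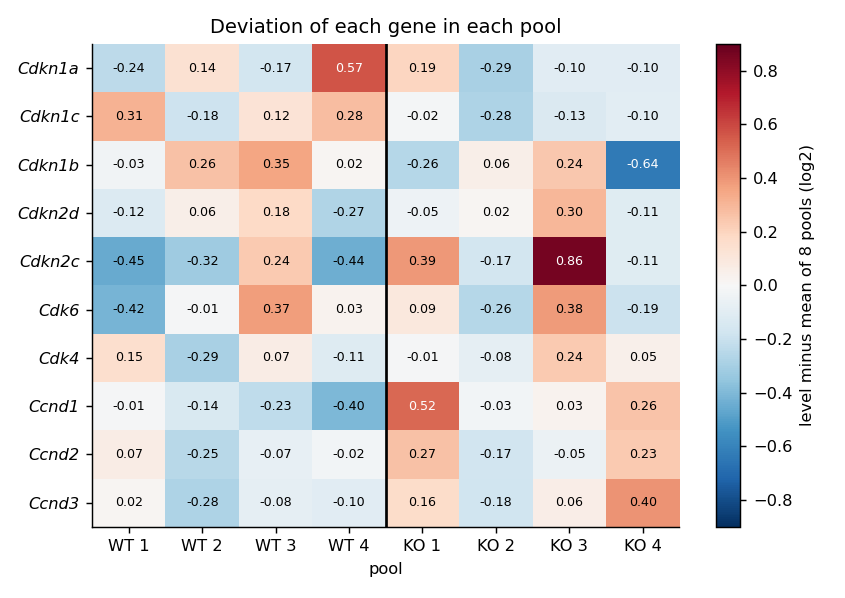
Level of each gene (rows) in each pool (columns) minus its mean over the 8 pools, in log2 units, with red above and blue below the mean. The D cyclins are highest in KO pools 1 and 4, while Cdkn2c and Cdk6 are high in the third pool of both groups. In KO pools 1 and 4 Cdkn1b is lowest by its brighter probe set, shown here, and highest by its dimmer one.

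Of 45 pairs of members, 26 had a positive and 19 a negative Pearson r over the 8 pools, with a median of 0.085. An exact permutation test of r over all pairings was under 0.05 for 6 pairs before adjustment and for 0 pairs after Benjamini-Hochberg adjustment over the 45. All pairs share the same arrays and RNA. The permutation also takes the 8 pools as unrelated to one another. Deviations of same-numbered KO and WT pools, however, correlated across genes, with r from 0.0623 to 0.305. Ccnd2 and Ccnd3 were closest, with r = 0.90 (exact permutation p = 0.0017, adjusted p = 0.077) and rho = 0.86 (exact permutation p = 0.0107, adjusted p = 0.241). Without KO pools 1 and 4 their r was 0.85, and with the group means removed it was 0.89. Cdkn1b ran the other way, with r = -0.81 to Ccnd2 (exact permutation p = 0.012, adjusted p = 0.196, rho = -0.86 with exact permutation p = 0.0107 and adjusted p = 0.241). Its r to Ccnd3 was -0.83 (exact permutation p = 0.013, adjusted p = 0.196, rho = -0.67 with exact permutation p = 0.0831 and adjusted p = 0.481). Without KO pool 4 and WT pool 3 these were -0.86 and -0.62. The dimmer probe set of Cdkn1b, set against the D cyclins after its values were seen, gave the opposite sign. Its r was 0.70 to Ccnd2 (exact permutation p = 0.0409, adjusted over 3 relations p = 0.0937, rho = 0.50 with exact permutation p = 0.216 and adjusted p = 0.216) and 0.69 to Ccnd3 (exact permutation p = 0.0625, adjusted p = 0.0937, rho = 0.67 with exact permutation p = 0.0831 and adjusted p = 0.144). Without KO pools 1 and 2 these were 0.60 and 0.82. To Ccnd1 its r was 0.52 (exact permutation p = 0.190, adjusted p = 0.190, rho = 0.64 with exact permutation p = 0.0962 and adjusted p = 0.144), and 0.77 without the same pools. Cdkn2c followed Cdk6 with r = 0.75 (exact permutation p = 0.0319, adjusted p = 0.287, rho = 0.76 with exact permutation p = 0.0368 and adjusted p = 0.414), and r was 0.65 without KO pools 1 and 3. It followed Cdkn2d with r = 0.77 (exact permutation p = 0.0254, adjusted p = 0.285, rho = 0.69 with exact permutation p = 0.0694 and adjusted p = 0.481), and r was 0.76 without the same pools.

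The pools also differed in the level of cycling genes, summarised as the mean deviation of 16 G2 and M phase markers from their means over the 8 pools. It was -0.005, -0.005, 0.448 and 0.141 in KO pools 1 to 4, against -0.381, -0.432, 0.253 and -0.019 in WT pools 1 to 4. KO pool 3 and WT pool 3 were the highest, and WT pools 1 and 2 the lowest. Each of the 10 members was set against this value. Cdkn2c had the highest r, 0.78 (exact permutation p = 0.0229, adjusted over the 10 relations p = 0.229), with rho = 0.86 (exact permutation p = 0.0107, adjusted p = 0.107). Leaving out KO pool 3 and WT pool 2, the pools farthest from the median, took r to 0.60, and it was 0.69 with the group means removed. Cdk6 had r = 0.68 (exact permutation p = 0.0625, adjusted p = 0.312), with rho = 0.67 (exact permutation p = 0.0831, adjusted p = 0.321), and its r was 0.74 without the same pools. Cdk4 had r = 0.59 (exact permutation p = 0.121, adjusted p = 0.402), with rho = 0.64 (exact permutation p = 0.0962, adjusted p = 0.321), and here r was -0.29 without those pools, so that the relation rests on them. For Cdkn1a, Cdkn1b and Cdkn1c r lay between -0.19 and 0.01, for Cdkn2d it was 0.51, and for the D cyclins between 0.10, for Ccnd1, and 0.40, for Ccnd3. None of the 10 relations passed after adjustment. Each group holds 4 pools, too few for a correlation within it.

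**Figure D4:**
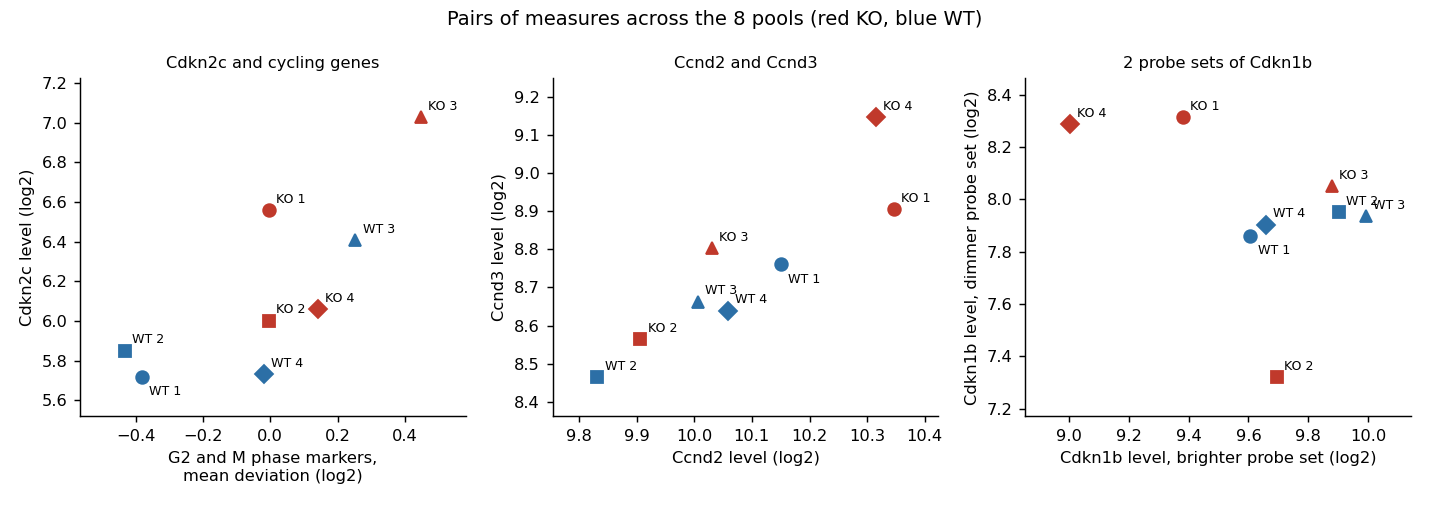
Pairs of measures in the 8 pools (red KO, blue WT, labelled by pool): Cdkn2c level against the mean deviation of G2 and M phase markers, Ccnd3 against Ccnd2, and the dimmer against the brighter probe set of Cdkn1b, all in log2 units. Cdkn2c is highest in KO pool 3, where the markers are highest, Ccnd2 and Ccnd3 line up with an r of 0.90, and the probe sets of Cdkn1b part in KO pools 1, 2 and 4.

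The rest of the pathway was described with fixed lists, in which limma called 0 genes in either direction at an adjusted p under 0.05, with a lowest adjusted p of 0.967. Of 13 genes of the RB and E2F family, 12 were higher in KO, with a median difference of 0.22 against -0.0043 over all genes. The E2F repressor gene E2f8 was at 7.85, 7.79, 8.37 and 8.19 in KO pools 1 to 4, against 7.44, 7.34, 7.83 and 7.66 in WT pools 1 to 4, a difference of 0.48 (SE 0.16). Its groups overlapped by KO pool 2 and WT pool 3. Rb1, which encodes RB, differed by 0.22 (SE 0.11) and the activator gene E2f3 by 0.30 (SE 0.16). Tfdp2, which encodes a partner of E2F, was the 1 lower, with a difference of -0.10. The count of higher genes was 11 or 12 whichever pool was left out, while the median was 0.14 if KO pool 4 was left out and 0.12 if WT pool 2 was.

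Of 16 other cyclins, kinases and phosphatases of the cycle, 11 were higher and 5 lower, with a median of 0.12. Leaving out KO pool 3 took it to 0.05 and leaving out WT pool 2 to 0.03. Ccna2, the cyclin of S phase, differed by 0.40 (SE 0.20) and Cdk1, the kinase of mitosis, by 0.29 (SE 0.15). Cdk7, which encodes the kinase that activates other CDKs, differed by -0.42 (SE 0.15, limma adjusted p = 0.967). Ccne1 and Ccne2, which encode the cyclins that act after the D cyclins, differed by 0.02 and -0.02. Of 8 genes of the MuvB and DREAM complex, which holds cell cycle genes silent in resting cells and activates mitotic ones, 7 were higher, with Foxm1 at 0.30 (SE 0.19), Mybl2 at 0.25 (SE 0.19) and Lin54 at 0.18 (SE 0.17). Of 13 genes of the INK4 locus and of the turnover of inhibitors and cyclins, 8 were higher, and 5 without WT pool 2. Skp2, which marks p27 for destruction, differed by 0.19 (SE 0.11).

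Of 22 regulators upstream of the members, 11 were higher and 11 lower, with a median of 0.0044. Myc, which can induce Ccnd2 and Cdk4, was at 11.23, 10.84, 10.79 and 11.22 in KO pools 1 to 4, against 11.04, 10.32, 10.45 and 10.63 in WT pools 1 to 4. It was highest in KO pools 1 and 4 and differed by 0.41 (SE 0.17, limma adjusted p = 0.967). Cdk4 was highest in KO pool 3, where Myc was at 10.79. A relation of Myc to the members was not tested. Smad3, a signal carrier of TGF-beta, differed by 0.31 (SE 0.18), and Mdm2, a target and inhibitor of p53, by -0.29 (SE 0.16). Of 14 other genes tied to quiescence, 13 were lower in KO, with a median of -0.18. Btg1, an antiproliferative gene, was at 8.35, 7.61, 8.37 and 8.34 in KO pools 1 to 4, against 8.45, 8.57, 8.38 and 8.95 in WT pools 1 to 4. All its KO pools lay below all its WT pools, KO pool 3 lying just under WT pool 3, and the difference was -0.42 (SE 0.19, limma adjusted p = 0.967). Btg1 was the 1 gene of these 14 whose groups did not overlap, against 2.58% of all genes. Mllt3 differed by -0.26 (SE 0.16) and Ndn by -0.24 (SE 0.15). The median of that list was -0.06 without KO pool 3.

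Of 15 S phase markers 14 were higher, with a median of 0.28, and of 16 G2 and M phase markers 16 were higher, with a median of 0.31. Without KO pool 3 the medians were 0.17 and 0.18 and the latter count was 12, and without WT pool 2 the medians were 0.16 and 0.21. Mcm4, a subunit of the replicative helicase, differed by 0.41 (SE 0.14), Ube2c, a mitotic ubiquitin-conjugating enzyme, by 0.49 (SE 0.12) and Mki67, a marker of cycling cells, by 0.47 (SE 0.16). The pools of the groups did not overlap for 1 S phase marker, Mcm4, and 1 G2 and M phase marker, Ube2c, against 2.58% of all genes. The mean deviation of the G2 and M phase markers was 0.145 ± 0.214 for KO and -0.145 ± 0.323 for WT (SD, n = 4), so the groups overlapped in this mean. These lists were chosen with the direction of cycling and quiescence genes in these data already known, so their counts are not independent evidence of it. Markers of other cells moved along with these lists in part. The megakaryocyte markers, 6 of 6 higher in KO with a median difference of 0.32, averaged 8.26 to 8.84 per KO pool and 7.85 to 8.62 per WT pool. Like the G2 and M phase markers, they were highest in the third pool of each group, with KO pool 4 next, and lowest in WT pools 1 and 2. Pf4, the chemokine gene that defines this lineage and that HSCs also express, was at 11.44 in KO and 11.26 in WT. The granulocyte and monocyte markers, 8 of 12 higher in KO, averaged 6.21 to 7.27 per KO pool and 5.81 to 7.14 per WT pool, with WT pool 2 lowest. Unlike the G2 and M phase markers, they were highest in KO pool 2, where the mean deviation of the G2 and M phase markers was -0.005. The endothelial and stromal markers, 6 of 7 higher, averaged 5.35 to 5.81 and 5.29 to 5.51, with KO pools 3 and 4 highest. Cxcl12, a chemokine gene of marrow stroma, averaged 6.40 in KO, against 5.88 in WT, and reached 7.18 in KO pool 3. Cdh5, which encodes the cadherin of endothelium, was at 5.24 and 4.80 and reached 6.08 in KO pool 3, while Lepr, which defines stromal cells, was at 3.38 and 3.23. Their part in the levels of the members was not tested.

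**Figure D5:**
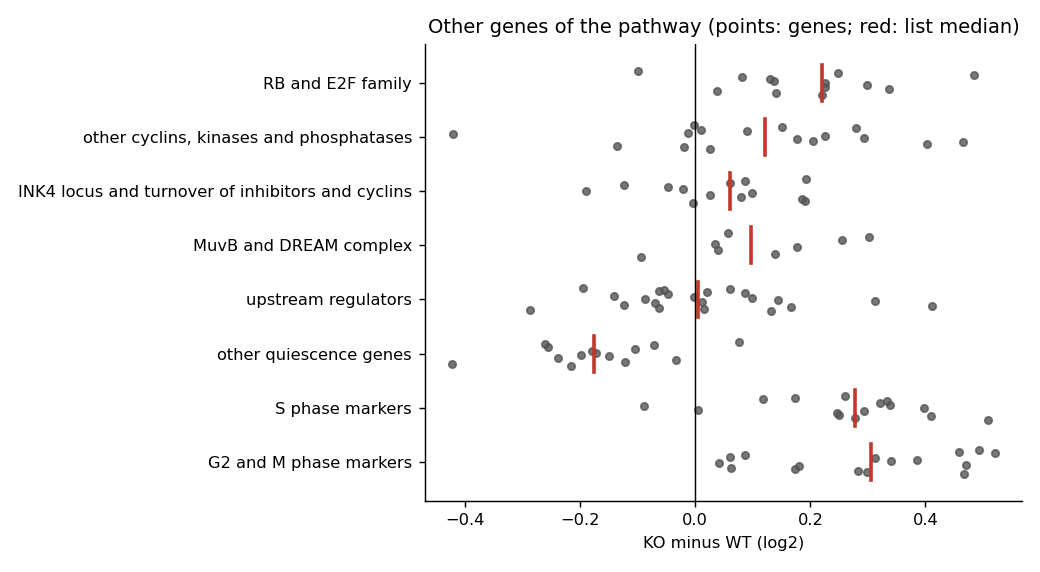
Difference KO minus WT (x axis, log2) of every measured gene (points) of 8 lists around the pathway (y axis), with the median of each list in red. Medians run from -0.18 for the other quiescence genes to 0.31 for the G2 and M phase markers, and no gene shown passed limma's adjusted threshold.

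For each member, the genes with the most similar levels over the 8 pools were taken from the genes above the median level, by Pearson r. With 9635 genes searched per member (9636 for Cdkn1a, itself below that level), these names are a description of the 8 pools. Ccnd3 was followed by Zfp759 (r = 0.99) and Lasp1 (r = 0.97), Ccnd2 by Zmiz1 (r = 0.99) and Dap (r = 0.98), and Ccnd1 by Snrk (r = 0.98) and Angel2 (r = 0.95). Cdkn1c was followed by Ankra2 (r = 0.98) and Ybey (r = 0.96), Cdkn1b by Fam36a (r = 0.97) and Mical1 (r = 0.96), and Cdkn1a by Slc3a2 and Cd69 (r = 0.95 each). Cd69 encodes an early activation antigen of leukocytes. Cdkn2c was followed by Nono (r = 0.95) and Actr1a (r = 0.94), Cdkn2d by Slc35a3 (r = 0.97) and Gle1 (r = 0.94), and Cdk4 by Rdx (r = 0.97) and Ndufb3 (r = 0.96). Cdk6 was followed by Pex19 (r = 0.95) and by Cenpa (r = 0.94), the centromeric histone that is itself one of the G2 and M phase markers.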

How the data were processed

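Per the submitters' processing notes, array intensities were processed by the authors with RMA in Affymetrix Expression Console 1.3, and were deposited as log2 levels of 28853 probe sets, from 1.47 to 13.3. Per the labels' protocols, RNA was amplified from very small amounts before hybridisation. The authors' deposited log2 ratio, p-value and signed fold change, a score that is negative where KO was lower, were not used. The genome build behind the probe sets is not stated in the sources used here. Of the probe sets, 23586 carried 1 symbol, and for 1351 genes with several the one with the highest mean was kept, leaving 21104 genes.

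KO and WT were compared by limma 3.58.1 under R 4.3.3 (functions lmFit and eBayes, no covariate), with p adjusted over all genes by Benjamini-Hochberg. This was tested on simulated data. Pools are the replicates. Nothing says whether they were processed on separate days, so p-values measure the spread between pools. The labels give no batch, and the number of arrays limits the precision. Correlations used exact permutation of the 8 pools. Alternatives covered normalization, filters on dim genes, the variance prior, array weights, probe sets, a replicate block and leaving out each pool. Named are the members, Bmpr2, up to 3 genes per list with the largest moderated t and 2 nearest genes per member. The genes Cdkn2a, Tfdp2, Ccne1, Ccne2, Cd48, Lepr, Pf4, Mpo, S100a8, Hbb-b1, Nkg7, Tjp1 and 7120432I05Rik were chosen after their values were seen. So were Prtn3, Ms4a3 and Ly6c2. Members and lists were chosen with earlier results of these data known. Of the listed genes, Gp1bb and Gp6 had no row under that symbol.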

Additional observations from a re-analysis of the deposited data

How the results depend on the processing

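Under 17 alternatives no member passed limma's adjusted threshold (lowest adjusted p 0.583, for Cdkn2c with the replicate block), and 180 of 186 values for the members and Bmpr2 kept their sign. The exceptions were Cdk6, at -0.060 after quantile normalization and between -0.12 and 0.14 with a pool left out, Cdkn1a, between -0.26 and 0.010, and Cdkn2d, between -0.0053 and 0.15. The cause was not tested. Many of the signs could not change. The filters on dim genes, the variance prior, the replicate block and the fit of all probe sets as rows leave a difference as it was. Averaging probe sets moved only Cdkn1b. The dimmer probe set of Cdkn1b, higher in KO by 0.08, was not counted among these values. Cdkn1a gave no value among genes above the median level. The count of called genes was 0 with any pool left out and 2 under a replicate block, where Tjp1 (1.62) and 7120432I05Rik (-1.31) had a limma adjusted p of 0.0193, and 0 of the called genes were members. Unadjusted p under 0.05 then numbered 1689 genes against 960, and 4 members against 1 (Cdkn2c 0.00588, Ccnd1 0.0112, Cdkn1c 0.0303 and Cdkn1b 0.0342). Deviations of same-numbered pools correlated across genes between 0.0623 and 0.305, and 4 of 4 KO pools correlated best with the WT pool of their number, a hint from the data that the labels do not explain. Leaving out pools was tried on the lists after the data were seen. Of the other quiescence genes, between 0 and 4 were then higher. The files give no detection call, so signal over background was not measured for single genes.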

Other observations

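Some markers of other marrow cells varied widely between pools. Of 12 granulocyte and monocyte markers, Ngp, which encodes a neutrophil granule protein, was at 6.20, 7.65, 6.58 and 6.75 in KO pools 1 to 4, against 6.32, 4.603, 7.25 and 5.97 in WT pools 1 to 4. Ltf, which encodes lactoferrin, ranged from 4.56 to 6.49 in KO and from 4.54 to 4.96 in WT, with KO pool 2 highest. The myeloid enzyme gene Mpo averaged 6.70 in KO against 6.03 in WT, and S100a8 averaged 9.996 and 9.31. KO pool 2, highest for Ngp and Ltf, was the pool with the lowest Cdkn1a and Cdkn1c. WT pool 2, lowest for Ngp and Ltf, had a Cdkn1c of 6.06, above that of KO pool 2 only. Its Cdkn1a, at 5.70, lay below those of KO pool 1 and WT pool 4 only. A relation of the members to these markers was not tested. Csf3r, the receptor gene for the granulocyte growth factor, ran the other way, at 6.96 in KO and 7.24 in WT.

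Of 9 erythroid markers 8 were higher in KO, with a median difference of 0.08. Car1, an early erythroid enzyme gene, ranged from 6.78 to 8.87 in KO and from 5.50 to 8.22 in WT, with KO pool 3 highest and WT pool 2 lowest. Klf1, an erythroid transcription factor gene, differed by 0.32 (SE 0.17) and Hba-a1 by 0.50 (SE 0.36). All 6 megakaryocyte markers measured were higher, with Gp1ba at 0.60 (SE 0.18), Treml1 at 0.41 (SE 0.20) and Gp9 at 0.25 (SE 0.19). Of 7 B lymphoid markers 5 were lower and 2 higher, among them Ms4a1 at -0.19, Cd79b at -0.20 and Pax5 at 0.10. Of 8 T and NK markers 5 were lower, with Cd3d at -0.23, Il2rb at -0.16 and Cd3g at -0.14, while Nkg7, at 8.48 in KO and 8.06 in WT, was higher. Of 10 stem cell identity genes 4 were higher and 6 lower, with Tek at 0.44 (SE 0.26) and Hlf at -0.18 (SE 0.17). None of these genes passed limma's adjusted threshold. Extremes by Dixon's criterion were sought in 24 sets of 4 pools, those of the 10 members, of the second probe set of Cdkn1b and of Bmpr2, and 0 were found.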
